A study of Mus musculus with 6 samples.

Results

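The genes of glycolysis and of the hypoxia response were examined in carcinogen-treated mouse tongues with and without Aim2. They comprised the 31 gene symbols Hif1a, the glucose transporter and enzyme genes from Slc2a1 and Hk1 to Pkm, the lactate genes and 9 hypoxia response genes, read from the deposited expression table of 35275 genes by symbol. All 31 were found, and 29 of them passed the expression filter, 1 FPKM or more on average over the 6 libraries (FPKM scales the reads of a gene to its length and to the library total). Car9 and Ankrd37 fell below it.

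Tongues came from wild type mice and from Aim2-/- mice, called Aim2 KO, 3 libraries of bulk RNA each. Aim2 is a receptor for DNA in the cytosol that triggers inflammasome assembly. Both groups had received 4NQO (4-nitroquinoline 1-oxide, a DNA-damaging carcinogen that produces squamous lesions of the oral lining) in their water, at 100 µg/ml for 20 weeks, so no untreated tongue was available for comparison. The labels used here name neither strain, sex and age nor the deleted exons of Aim2. They also do not say whether each library is a separate mouse, so p-values measure spread among libraries, which may be technical. The library names share leading digits within each genotype, and these digits differ between the genotypes. What they mark is not stated, so it cannot be told apart from genotype. The libraries held 21959204 to 25369400 reads.

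Glycolysis splits glucose to pyruvate and yields ATP without oxygen, and lactate dehydrogenase then turns pyruvate to lactate. Several of its steps are catalysed by isozymes from separate genes, of which some are typical of skeletal muscle, the main tissue of the tongue. Under low oxygen the transcription factor HIF-1, whose labile subunit is encoded by Hif1a, binds short DNA motifs beside many of these genes and raises their transcription.

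HIF-1 binds the core letters ACGTG or GCGTG. Promoter sequences, reaching from 250 bases before to 50 bases after a transcript start, were taken from RefSeq (GRCm38.p6) for 30 of the 31 genes, in 43 windows. Ndrg1 was not matched. For a gene with several windows, the one with the most ACGTG matches is shown, so its ACGTG count is the highest of that gene. Pfkm had 4 windows, Eno1 3 and Ldha 2, and the other genes shown had 1 each. The promoters shown are those of Ldha and Pgk1, the steadiest pair of these genes across the libraries, of Bnip3, Adm, Pfkm and Eno3, which had their lowest or highest level in the library with the least muscle marker RNA, and of Eno1, the isozyme partner of Eno3. Their windows lie at Ldha (chr7:46845554-46845853, plus strand), Pgk1 (chrX:106186850-106187149, plus strand), Bnip3 (chr7:138909457-138909756, minus strand), Adm (chr7:110627407-110627706, plus strand), Pfkm (chr15:98092339-98092638, plus strand), Eno3 (chr11:70656926-70657225, plus strand) and Eno1 (chr4:150236458-150236757, plus strand). Capitals mark ACGTG or GCGTG on either strand, read as CACGT or CACGC from the other one, and longer runs of capitals are overlapping matches.
Ldha: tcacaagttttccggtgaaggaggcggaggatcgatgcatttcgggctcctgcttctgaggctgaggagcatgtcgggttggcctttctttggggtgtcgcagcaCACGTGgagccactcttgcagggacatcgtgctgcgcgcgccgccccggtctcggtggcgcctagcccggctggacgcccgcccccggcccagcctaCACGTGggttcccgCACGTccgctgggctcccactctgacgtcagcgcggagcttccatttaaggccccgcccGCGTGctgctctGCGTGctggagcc
Pgk1: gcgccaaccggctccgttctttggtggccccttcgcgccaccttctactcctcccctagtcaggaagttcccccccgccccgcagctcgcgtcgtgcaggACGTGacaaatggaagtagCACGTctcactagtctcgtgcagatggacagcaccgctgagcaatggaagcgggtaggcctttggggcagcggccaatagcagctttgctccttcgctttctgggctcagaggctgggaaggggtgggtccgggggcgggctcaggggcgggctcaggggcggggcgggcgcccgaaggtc
Bnip3: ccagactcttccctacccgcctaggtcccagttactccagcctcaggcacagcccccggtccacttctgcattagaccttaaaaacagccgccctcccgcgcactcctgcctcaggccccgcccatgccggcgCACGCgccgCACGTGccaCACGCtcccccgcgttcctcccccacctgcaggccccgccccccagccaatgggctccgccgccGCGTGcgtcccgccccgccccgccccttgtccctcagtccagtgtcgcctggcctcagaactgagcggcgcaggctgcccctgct
Adm: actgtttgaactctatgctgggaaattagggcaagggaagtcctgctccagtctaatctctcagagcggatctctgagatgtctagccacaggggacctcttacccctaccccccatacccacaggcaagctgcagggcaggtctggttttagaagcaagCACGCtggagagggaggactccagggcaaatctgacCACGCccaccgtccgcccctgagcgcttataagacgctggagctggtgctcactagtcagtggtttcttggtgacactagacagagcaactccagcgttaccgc
Pfkm: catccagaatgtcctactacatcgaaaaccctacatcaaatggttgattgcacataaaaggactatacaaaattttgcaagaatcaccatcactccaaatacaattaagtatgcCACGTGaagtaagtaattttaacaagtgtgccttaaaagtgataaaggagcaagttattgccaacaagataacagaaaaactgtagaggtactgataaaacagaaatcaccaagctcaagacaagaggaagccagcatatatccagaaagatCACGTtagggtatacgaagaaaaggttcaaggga
Eno3: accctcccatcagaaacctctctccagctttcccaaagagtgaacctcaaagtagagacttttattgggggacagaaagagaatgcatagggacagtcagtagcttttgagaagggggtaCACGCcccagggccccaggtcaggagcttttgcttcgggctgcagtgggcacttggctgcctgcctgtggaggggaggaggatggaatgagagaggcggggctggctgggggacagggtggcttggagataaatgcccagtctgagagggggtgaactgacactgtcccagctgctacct
Eno1: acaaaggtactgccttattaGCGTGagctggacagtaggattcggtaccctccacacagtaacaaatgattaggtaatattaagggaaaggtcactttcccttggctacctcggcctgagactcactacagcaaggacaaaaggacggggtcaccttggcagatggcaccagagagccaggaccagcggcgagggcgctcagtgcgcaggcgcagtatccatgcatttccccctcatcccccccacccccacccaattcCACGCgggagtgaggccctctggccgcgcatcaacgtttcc

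The Ldha window held 5 matches of ACGTG and 2 of GCGTG, counting a palindrome on each strand. Bnip3 had 2 and 3, Pgk1 had 2 and 0, and Pfkm had 3 and 0. In Adm (2 matches), Eno1 (2) and Eno3 (1) the letters found were GCGTG alone. Over all 43 windows of these genes ACGTG occurred in 24 (55.8%), against 19.6% of 32851 RefSeq windows of the same length, and 21 of the 30 matched genes had it in at least 1 window. GCGTG also occurred in 24 of the 43 windows (55.8%), against 32.4% of all windows, and 19 genes had it. These shares are a description, since several of the genes were gathered as known hypoxia targets. A match of these letters is not evidence of binding in these tongues.

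One library stood apart before any comparison. The skeletal muscle level, the mean log2(FPKM + 1) of 18 muscle markers, was 7.47 in Aim2 KO replicate 1 and 8.24 to 8.52 in the other 5 libraries. The markers summed to 11168 FPKM there and to 18400 to 22640 FPKM elsewhere, and 1 of them, Tnnc2, was at or near 0 throughout. In the same library the keratinocyte level over 13 markers was highest, at 10.84 against 10.25 to 10.67. Levels of neutrophil markers (6 listed, 2 tested) were also highest in it, at 4.20 against 3.01 to 3.83. So were those of proliferation markers, at 3.53 against 2.88 to 3.32. Levels of endothelial, fibroblast, red cell, macrophage, Schwann cell and adipocyte markers were lowest in it. Leukocyte markers (10 listed, 9 tested) separated the genotypes, at a mean level of 2.47 to 3.02 in Aim2 KO and 1.86 to 2.02 in wild type. All 9 tested genes were higher in Aim2 KO, with a median log2 difference of 0.74. Each of the 9 had an unadjusted limma p under 0.05, as did 2.50% of all genes, and 0 were past the adjusted threshold. Aim2 itself was at 0.0879 ± 0.0630 FPKM (SD, n = 3) in the knockouts and 0.327 ± 0.112 FPKM in the wild type libraries, from 17 and 69 reads in all. In bulk tissue fewer cells of a type and less RNA per cell cannot be told apart. For the tested genes of the list, log2 differences without Aim2 KO replicate 1 are therefore given beside those of all 6 libraries.

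The genes spanned a wide range of levels. Gapdh, the dehydrogenase of the triose phase, was the most abundant at a mean of 2030 ± 156 FPKM (SD, 6 libraries), followed by the aldolase gene Aldoa at 1595 ± 244 FPKM. Next came Pkm (709 FPKM), which encodes pyruvate kinase, the muscle enolase gene Eno3 (688 FPKM) and the lactate dehydrogenase gene Ldha (533 FPKM). In all, 11 genes had means over 100 FPKM and 6 were under 10 FPKM. The hypoxia response genes were lower than most enzyme genes, from Bnip3 at 69.0 FPKM to Car9 at 0.304 FPKM. For 23 of the 30 pairs of neighbours in this order the ranges over the libraries overlapped, as for Pkm and Eno3. Pairs whose ranges were apart included Aldoa and Pkm, Ldha and the triosephosphate isomerase gene Tpi1 (427 FPKM), and Pgk1 (228 FPKM) and Ldhb (152 FPKM).

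**Figure D1:**
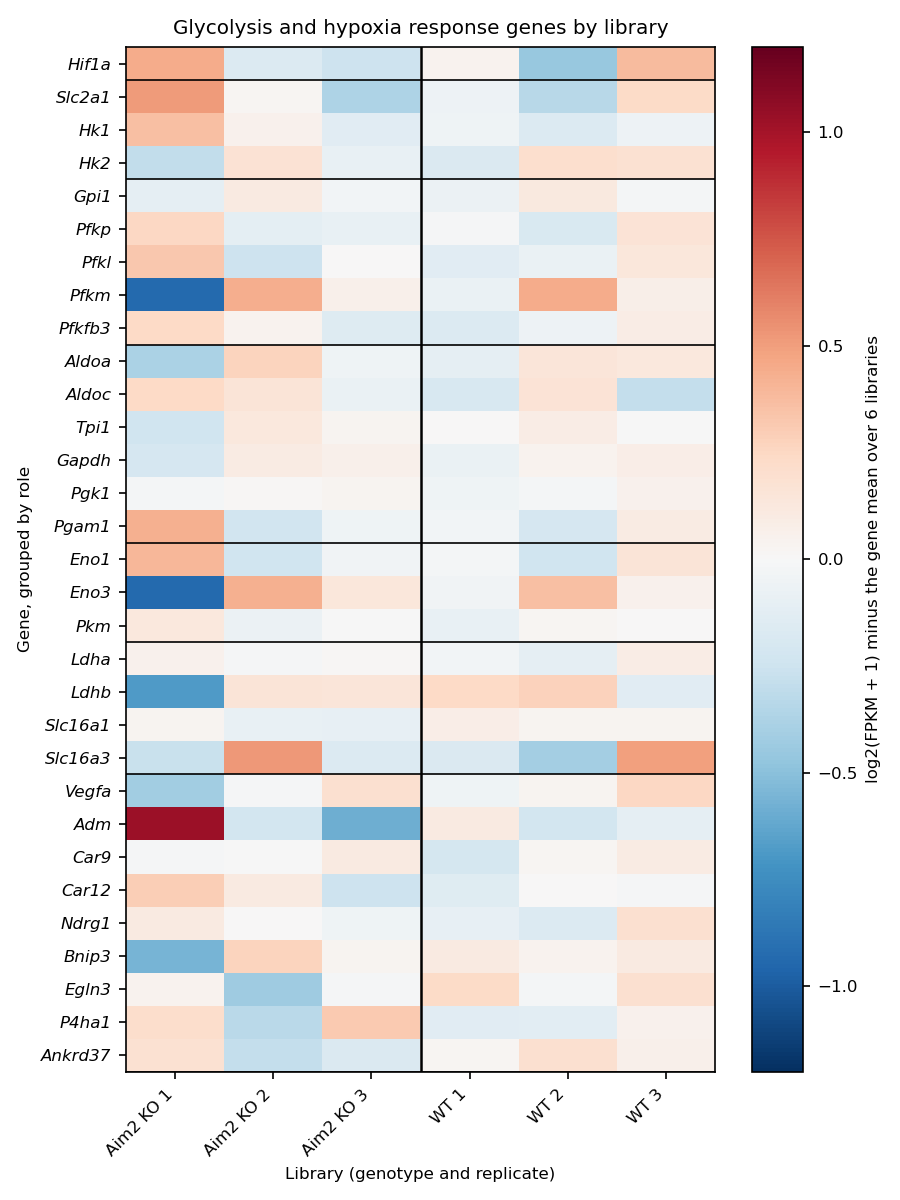
Heat map of the 31 genes (vertical axis, grouped by role) in the 6 libraries (horizontal axis); colour is log2(FPKM + 1) minus the mean of the gene over the 6 libraries. Aim2 KO replicate 1 holds the strongest colours, blue for Pfkm and Eno3 and red for Adm, whereas no gene separates the 3 Aim2 KO from the 3 wild type columns.

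The comparison of the genotypes asked whether loss of Aim2 changed these transcripts in the exposed tongue. No gene of the list differed past the threshold, 0 of the 29 tested (limma on log2(FPKM + 1), Benjamini-Hochberg adjusted p = 0.9998 for each), where 1 of 12144 genes did (0.00823%). At an unadjusted p under 0.05 the count was again 0, against 304 of all genes (2.50%). The Aim2 KO and wild type libraries overlapped for all 29 genes, while they did not for 785 of all genes (6.46%). Log2 differences, Aim2 KO minus wild type, ran from -0.29 for Pfkm to 0.21 for Aldoc, with 17 above 0 and 12 below. Their median of 0.02 was that of all genes tested, also 0.02. Without Aim2 KO replicate 1 the split was 15 to 14 with a median of 0.01, against 0.06 for all genes, and the sign of the difference turned in 20 of the 29 genes. The share of all genes whose sign turned was not computed.

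The spread between libraries limited how small a change could be detected. The 95% intervals of the difference lay within 0.5-fold to 2-fold for 26 of the 29 genes, and within 1.5-fold in either direction for 19. The exceptions to the former were Pfkm, whose interval reached down to 0.475-fold, Eno3, down to 0.487-fold, and Adm, up to 2.02-fold. These are folds of FPKM + 1, so the intervals are narrower than for FPKM itself in low genes such as Slc16a3, Pfkfb3, Aldoc and P4ha1. Limma's voom on the recovered reads also called 0 of the 29, and so did limma without Aim2 KO replicate 1, where 0.115% of all genes passed.

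**Figure D2:**
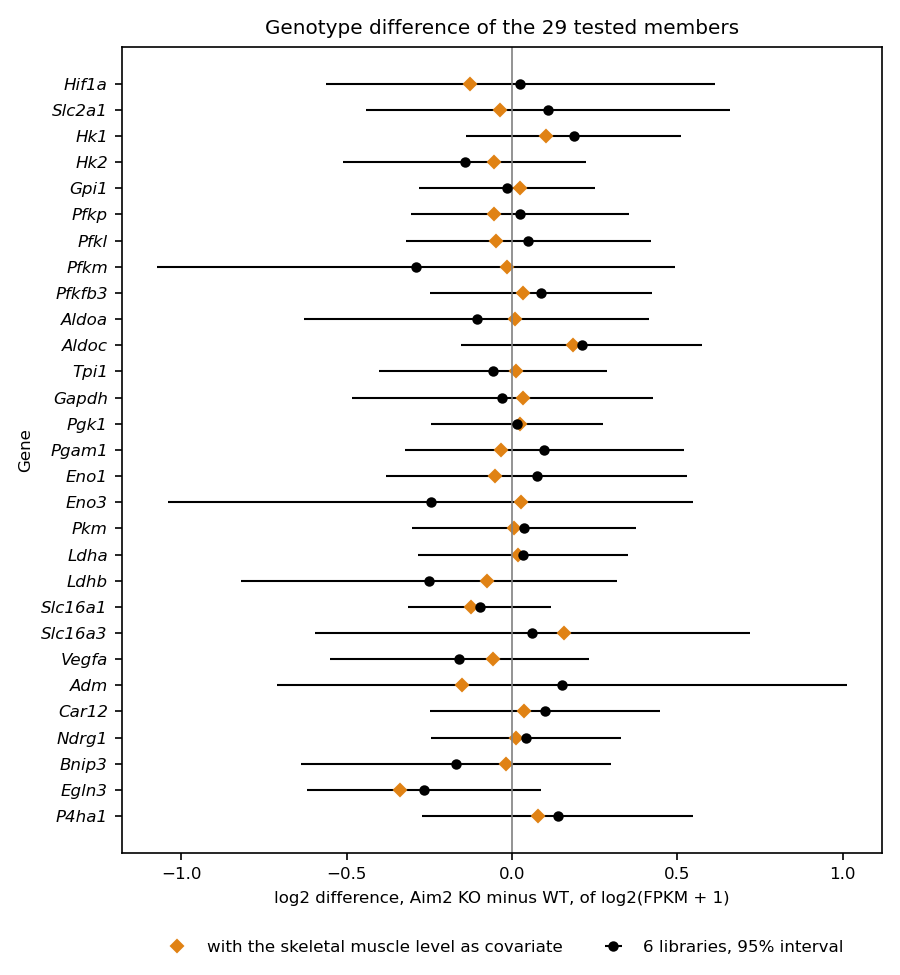
Log2 difference, Aim2 KO minus wild type (horizontal axis), of the 29 tested genes (vertical axis); black points and lines are estimates with 95% intervals from 6 libraries, orange diamonds the estimates with the skeletal muscle level as a covariate. Every black interval crosses 0, and the widest belong to Pfkm, Eno3 and Adm.

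Hif1a is the regulator that the hypoxia genes share. It was at 71.8, 46.8 and 44.0 FPKM in Aim2 KO replicates 1 to 3 and at 53.8, 37.9 and 68.5 FPKM in wild type replicates 1 to 3. The highest library was Aim2 KO and the lowest wild type, and the groups overlapped (log2 difference 0.02, SE 0.25, and -0.19 without Aim2 KO replicate 1). Its protein is controlled mainly by hydroxylation and degradation, which transcript levels do not show.

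Glucose uptake and its first phosphorylation depend on Slc2a1, the transporter GLUT1, and on the hexokinase genes Hk1 and Hk2. Slc2a1 was at 74.1, 52.6 and 40.0 FPKM in Aim2 KO and at 49.8, 40.8 and 61.0 FPKM in wild type. Aim2 KO held both its highest and its lowest library, and its log2 difference of 0.11 was -0.12 without the highest. Hk1, the hexokinase of most tissues, was at 53.0, 42.5 and 37.3 FPKM in Aim2 KO and at 39.6, 36.4 and 39.2 FPKM in wild type. Its log2 difference of 0.19 (SE 0.14) became 0.05 when the 53.0 FPKM library, Aim2 KO replicate 1, was left out. Hk2, the inducible hexokinase that is prominent in muscle, was lowest in that same library, at 30.9 FPKM against 33.7 to 44.0 FPKM in the other 5. Its log2 difference was -0.14, and -0.03 without that library.

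In the hexose phosphate steps, Gpi1 (glucose phosphate isomerase) varied little, from 101 to 117 FPKM. Its log2 difference was -0.02, and 0.03 without Aim2 KO replicate 1. Phosphofructokinase, the committing step, is encoded by Pfkm (muscle type), Pfkl (liver type) and Pfkp (platelet type). Pfkm (chr15:98092589-98132447, plus strand) was at 137, 357 and 274 FPKM in Aim2 KO and at 249, 358 and 275 FPKM in wild type. One Aim2 KO library lay far below the others, and the remaining Aim2 KO values fell inside the wild type range. Its log2 difference of -0.29 (SE 0.34) was 0.10 without Aim2 KO replicate 1. Pfkl went the other way in that library, with 26.6 FPKM against 17.6 to 23.3 FPKM elsewhere, and Pfkp did so with 16.1 FPKM against 11.7 to 15.2 FPKM. Without it the log2 difference went from 0.05 to -0.10 for Pfkl and from 0.02 to -0.09 for Pfkp. Pfkfb3, which makes an activator of phosphofructokinase, was low throughout, from 2.28 to 3.32 FPKM. Its log2 difference of 0.09 was -0.01 without Aim2 KO replicate 1.

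Among the aldolase and triose genes, Aldoa was at 1214, 1902 and 1525 FPKM in Aim2 KO and at 1469, 1742 and 1720 FPKM in wild type. Both the lowest and the highest library were Aim2 KO, and the log2 difference of -0.11 was 0.06 without the lowest. Aldoc, the brain-type isozyme, had the highest log2 difference of the list (0.21, SE 0.16), at 5.29, 4.91 and 4.02 FPKM against 3.64, 4.97 and 3.35 FPKM. Wild type replicate 2 lay above 2 of the 3 Aim2 KO libraries, so the groups overlapped. Its difference was 0.14 without Aim2 KO replicate 1. Tpi1 ranged from 360 to 464 FPKM and Gapdh from 1765 to 2164 FPKM, each with its lowest value in Aim2 KO replicate 1. Their log2 differences, -0.06 and -0.03, were 0.05 and 0.06 without it.

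Pgk1, which carries out the first ATP-forming step, was the steadiest gene of the list, with a coefficient of variation (SD over mean) of 2.83% across the 6 libraries. It was at 223, 229 and 233 FPKM in Aim2 KO and at 219, 223 and 236 FPKM in wild type. Its log2 difference was 0.01, and 0.03 without Aim2 KO replicate 1. The 95% interval of its genotype difference, 0.843-fold to 1.21-fold, was among the narrowest. Pgam1, the phosphoglycerate mutase of most tissues, was at 99.9, 62.8 and 71.4 FPKM against 72.1, 64.1 and 79.0 FPKM, highest in Aim2 KO replicate 1. Its log2 difference was 0.10, and -0.09 without that library.

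At the enolase step, Eno3 (chr11:70657202-70662513, plus strand) was at 345, 889 and 724 FPKM in Aim2 KO and at 641, 848 and 682 FPKM in wild type. Its lowest library was the one in which Pfkm was lowest, and the other Aim2 KO values were above the wild type median. The log2 difference was -0.25 (SE 0.34), and 0.16 without Aim2 KO replicate 1. Eno1, the ubiquitous enolase, was at 374, 239 and 274 FPKM against 279, 240 and 314 FPKM. It was highest where Eno3 was lowest, and its log2 difference of 0.07 was -0.11 without that library. Pkm was steady, from 668 to 773 FPKM, with a log2 difference of 0.04, and -0.02 without Aim2 KO replicate 1.

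Lactate is formed mainly by Ldha and reoxidised mainly by Ldhb, and it crosses the membrane through the transporters of Slc16a1 (MCT1) and Slc16a3 (MCT4). Ldha was at 554, 527 and 536 FPKM in Aim2 KO and at 522, 493 and 568 FPKM in wild type, with a coefficient of variation of 4.87%. Its log2 difference was 0.03, and 0.01 without Aim2 KO replicate 1. Ldhb (chr6:142490249-142507957, minus strand) was at 92.4, 165 and 165 FPKM against 175, 180 and 135 FPKM. Again Aim2 KO replicate 1 was the lowest library, and the log2 difference of -0.25 (SE 0.24) was 0.03 without it. Slc16a1 stayed between 21.7 and 24.7 FPKM, with a log2 difference of -0.10, and -0.14 without Aim2 KO replicate 1. Slc16a3 was among the least steady genes, at 2.68, 5.34 and 2.94 FPKM against 2.92, 2.34 and 5.20 FPKM, with 1 high library in each genotype. Its log2 difference was 0.06, and 0.21 without Aim2 KO replicate 1.

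Of the hypoxia response genes, Egln3 (chr12:54178981-54203860, minus strand), a prolyl hydroxylase that marks HIF for degradation and is itself a HIF target, had the smallest p of the list. It was at 48.7, 34.8 and 46.9 FPKM in Aim2 KO and at 55.6, 46.4 and 54.3 FPKM in wild type. The groups overlapped, since the lowest wild type library lay below 2 of the 3 Aim2 KO libraries. Its log2 difference of -0.27 (SE 0.15) had a limma adjusted p of 0.9998 and a 95% interval from 0.651-fold to 1.06-fold. Without Aim2 KO replicate 1 it was -0.35 (adjusted p = 0.706). Its unadjusted p was then under 0.05, as was that of 6.90% of all genes.

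Adm (chr7:110627661-110629820, plus strand), which encodes the vasodilator peptide adrenomedullin, was the most variable gene that was tested. It was at 23.1, 9.12 and 6.88 FPKM in Aim2 KO and at 11.7, 9.10 and 9.95 FPKM in wild type. One Aim2 KO library was the highest of the 6 and another the lowest, so the log2 difference of 0.15 (SE 0.37) turned to -0.33 without Aim2 KO replicate 1 (adjusted p = 0.763). The mean keratinocyte level was also highest in that library, although of its markers Krt4 was lowest there and Krt13 was inside the range of the rest. Neutrophil and proliferation marker levels were highest there too. The part of keratinocytes, neutrophils or dividing cells in the Adm value was not tested.

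Bnip3 (chr7:138890836-138909519, minus strand), a receptor for the removal of mitochondria, was at 45.9, 82.3 and 69.5 FPKM in Aim2 KO and at 73.3, 70.0 and 73.3 FPKM in wild type. The wild type libraries were close together, and the Aim2 KO libraries lay on both sides of them. The log2 difference was -0.17, and 0.07 without Aim2 KO replicate 1. Vegfa, the angiogenic growth factor, was at 15.4, 20.7 and 24.0 FPKM against 20.2, 21.5 and 25.0 FPKM. It too was lowest in Aim2 KO replicate 1, and its log2 difference of -0.16 was 0.01 without it. Car12, a carbonic anhydrase of the cell surface, ranged from 35.4 to 52.0 FPKM, the stress-induced gene Ndrg1 from 10.8 to 14.2 FPKM, and P4ha1, a subunit of collagen prolyl hydroxylase, from 4.48 to 7.52 FPKM. In each of these 3 genes the groups overlapped. Their log2 differences of 0.10, 0.04 and 0.14 were -0.02, -0.0035 and 0.07 without Aim2 KO replicate 1.

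The 2 genes below the filter rested on few reads. Car9, a carbonic anhydrase often used as a marker of tissue hypoxia, was at 0.285, 0.297 and 0.405 FPKM in Aim2 KO and at 0.121, 0.326 and 0.390 FPKM in wild type, with as few as 6 reads in a library. Ankrd37, a HIF target with ankyrin repeats, was at 1.10, 0.518 and 0.639 FPKM against 0.878, 1.11 and 0.935 FPKM. It overlaps Ufsp2, which lies on the opposite strand at 18.0 FPKM, and strand use in counting is not stated, so reads of Ufsp2 could be included. In a fit without the filter neither passed the threshold (limma adjusted p = 1 for each). The tested gene nearest to the filter was Pfkfb3, at a mean of 2.68 FPKM.

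Aim2 KO replicate 1 was the library most often at an extreme. It was outside the range of the other 5 libraries for 22 of the 29 tested genes (75.9%), above it for 12 and below it for 10. Of all genes tested, 56.1% were outside, 21.9% above and 34.2% below. The coefficient of variation was larger among the Aim2 KO than among the wild type libraries for 23 of the 29 genes, against 65.1% of all genes. Its median over the 29 genes was 18.9% in Aim2 KO and 10.8% in wild type, against 14.7% and 11.1% over all genes tested.

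Since muscle markers were low in the same library, the genes were also related to the skeletal muscle level. The slope, the change in log2(FPKM + 1) per unit of that level, was fitted by limma over the 6 libraries with genotype in the model. Over all genes 1683 of 12144 were called for it (13.9%), 11.6% rising and 2.26% falling with the level. Of the 29 genes 6 were called, 4 rising and 2 falling. The rising share was close to that of all genes.

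The rising genes were Pfkm (slope 1.27, SE 0.17, limma adjusted p = 0.00471), Eno3 (1.27, SE 0.16, adjusted p = 0.00435), Ldhb (0.81, SE 0.19, adjusted p = 0.0278) and Bnip3 (0.70, SE 0.14, adjusted p = 0.0176). Pfkm and Eno3 are the muscle isozymes of their steps. Falling with the level were Adm (-1.40, SE 0.21, adjusted p = 0.00641) and Pgam1 (-0.60, SE 0.14, adjusted p = 0.0295). Eno1 had a slope of -0.58 that missed the threshold (adjusted p = 0.0543). The steady genes Pgk1 (0.05) and Ldha (-0.07) had slopes near 0.

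These calls rested on Aim2 KO replicate 1. Without it the muscle level spanned only 8.24 to 8.52, and 0 of the 29 genes and 0 of all genes passed by limma, although 7.14% of all genes had an unadjusted p under 0.05. The slope kept its sign in 22 of the 29 genes without that library, a count that was not made over all genes. Pfkm was then at 2.63 (adjusted p = 0.416), Eno3 at 2.04 (adjusted p = 0.654), Bnip3 at 0.30, Ldhb at 0.29, Pgam1 at -1.04 and Adm at -0.26. Without Aim2 KO replicate 2 the calls were 3 of 29. With 1 library setting the range, the muscle level and any other property of that library cannot be told apart.

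**Figure D3:**
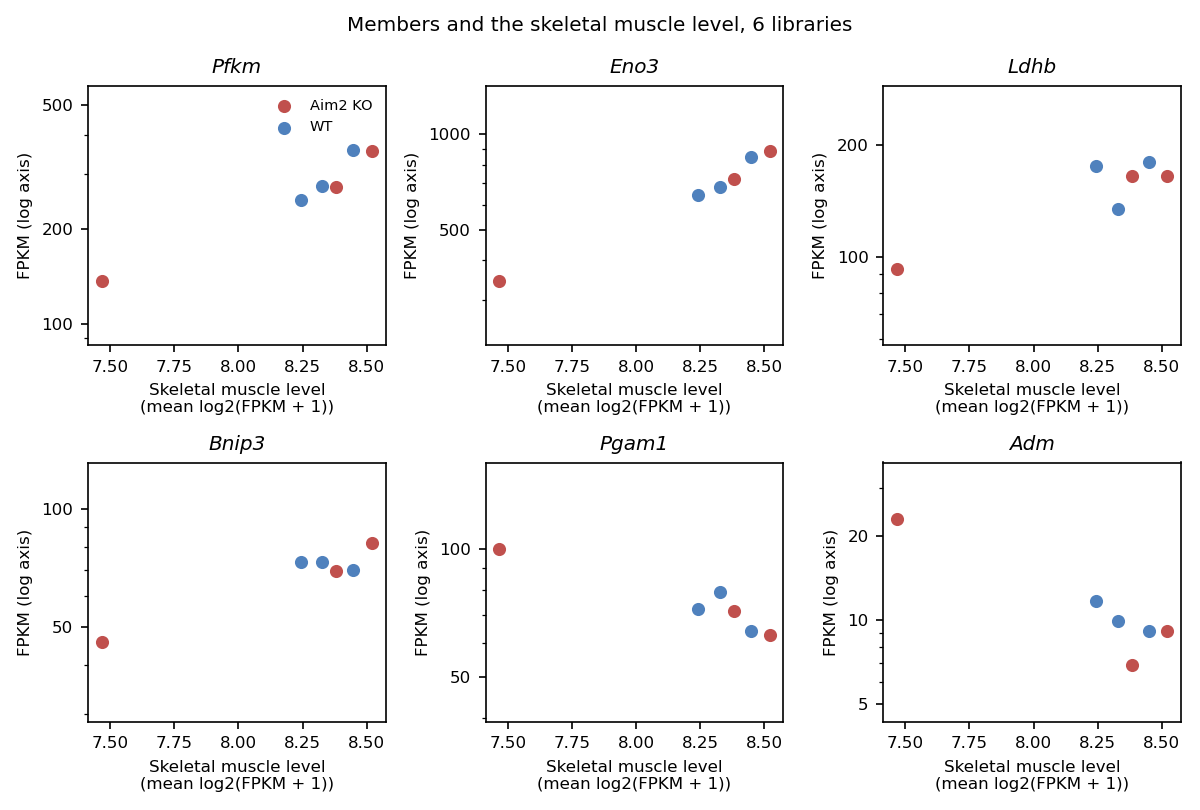
FPKM (vertical axes, log scale) of the 6 genes called for the skeletal muscle level against that level (horizontal axes, mean log2(FPKM + 1) of 18 markers), 1 point per library, red for Aim2 KO and blue for wild type. A single red point at 7.47 stands away from 5 points at 8.24 to 8.52, and it is the lowest for Pfkm, Eno3, Ldhb and Bnip3 and the highest for Pgam1 and Adm.

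Isozyme shares compare genes within a library and so do not depend on how it was scaled. Eno3 made up 48.0% of the summed enolase FPKM (Eno1 and Eno3) in Aim2 KO replicate 1 and 68.5% to 78.8% in the other 5 libraries. Pfkm made up 76.2% of phosphofructokinase against 87.7% to 92.3%. Both muscle isozymes thus took a smaller part of their step in that library. For Ldhb the share of lactate dehydrogenase was 14.3% against 19.2% to 26.7%, and for Hk2 the share of hexokinase was 36.8% against 46.0% to 54.7%. Aldoc was 0.434% of aldolase there and 0.195% to 0.284% in the other libraries. The transporter share of Slc16a3, 10.1% in that library, fell inside the range of the rest (8.94% to 19.6%).

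Between the genotypes none of the 6 isozyme ratios passed the test, and with 3 against 3 libraries the smallest exact p possible is 0.1. The Eno3 to Eno1 ratio was 2.43 ± 1.41 in Aim2 KO and 2.67 ± 0.754 in wild type (SD, n = 3 each; exact permutation test, two-sided, p = 0.9, adjusted over the 6 ratios 0.9). Pfkm to the sum of Pfkl and Pfkp was 7.75 ± 4.37 against 8.72 ± 2.28 (exact p = 0.9). The remaining ratios had exact p from 0.4 to 0.6. Without Aim2 KO replicate 1 the log2 difference of Eno3 to Eno1 went from -0.32 to 0.27, and that of Pfkm to its partners from -0.33 to 0.21.

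**Figure D4:**
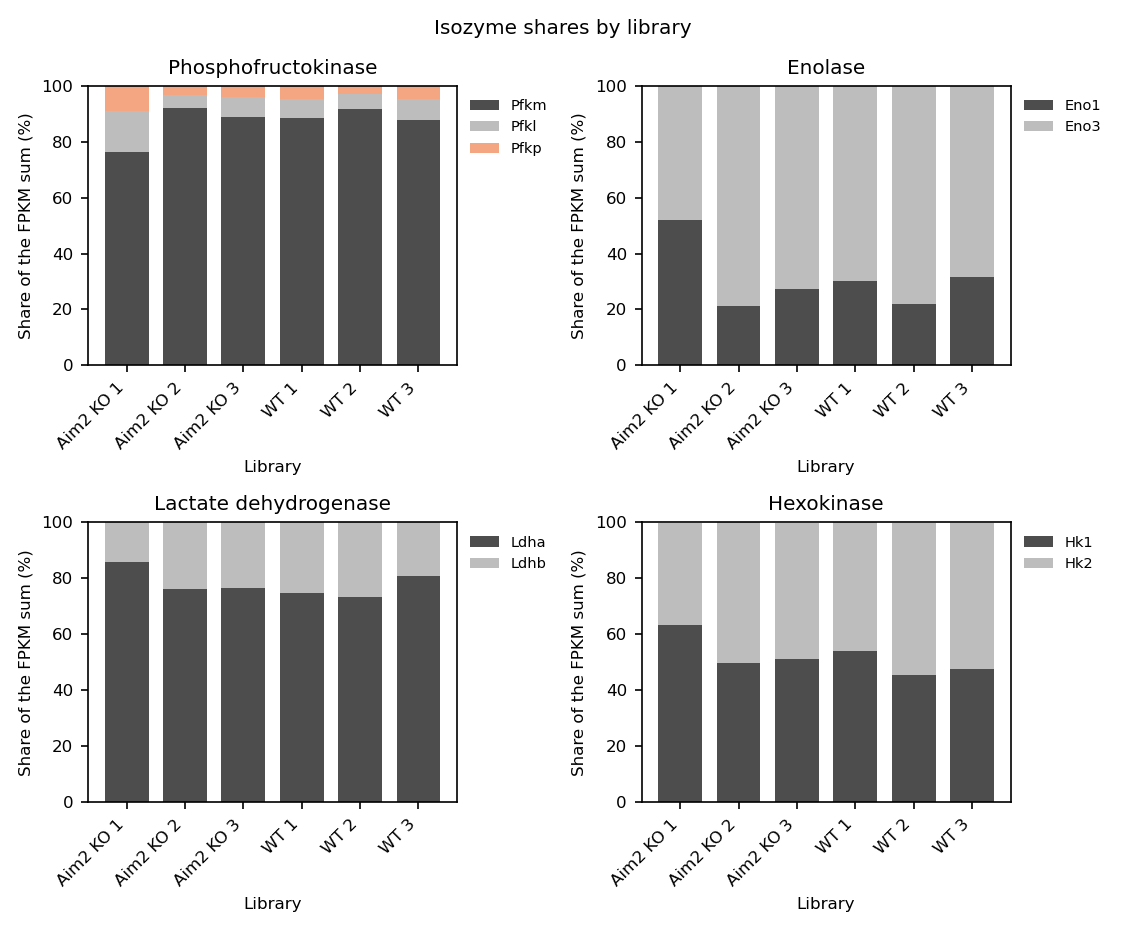
Stacked bars of each isozyme's share of the summed FPKM of its step (vertical axis, percent) in the 6 libraries (horizontal axis), for phosphofructokinase, enolase, lactate dehydrogenase and hexokinase. The bar of Aim2 KO replicate 1 departs from the other 5 in all 4 panels, with Eno3 at 48.0% and Pfkm at 76.2%.

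Neighbouring pathways were read from the same genotype fit, and 0 genes were called in each list (limma, adjusted over all genes). The direction of each list turned when Aim2 KO replicate 1 was left out. Over all genes tested the split moved too, from 6951 higher and 5193 lower to 8148 higher and 4061 lower without that library. Of 12 other tested glycolysis genes 4 had higher and 8 lower estimates in Aim2 KO (median log2 difference -0.06, against 0.02 for all genes), and without that library 10 were higher and 2 lower (median 0.10, against 0.06 for all genes). Pgam2, the muscle phosphoglycerate mutase, was at 176, 427 and 324 FPKM in Aim2 KO and at 329, 423 and 318 FPKM in wild type. Its log2 difference of -0.29 was 0.07 without Aim2 KO replicate 1. Slc2a9, with the smallest p of the 12, stayed higher in Aim2 KO, at 0.28 and at 0.18 without that library, and the groups overlapped. Of 15 genes that steer pyruvate into mitochondria 5 were higher and 10 lower (median -0.12), and without it 13 were higher and 2 lower (median 0.09). Mpc2, a subunit of the pyruvate carrier, had a log2 difference of -0.25, and of -0.02 without it. The smallest p of the 15 was that of Pcx, at 10.7 FPKM in Aim2 KO against 9.78 FPKM in wild type. Its groups did not overlap, as for 6.46% of all genes tested. Its log2 difference of 0.118 was 0.145 without Aim2 KO replicate 1, so it did not turn.

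For 11 genes of oxygen sensing the split was 3 higher to 8 lower (median -0.02). Without Aim2 KO replicate 1 it was 7 to 4 (median 0.07, against 0.06 for all genes). Egln1, the main HIF prolyl hydroxylase, was at 52.3 FPKM in Aim2 KO against 60.4 FPKM in wild type (log2 difference -0.21, and -0.11 without that library). Of 30 other hypoxia targets 11 were higher and 19 lower (median -0.03), and without it 18 were higher and 12 lower (median 0.05). Neither these targets nor oxygen sensing then had a larger share of higher genes than all genes tested. The chemokine receptor gene Cxcr4, which leukocytes also express, was the 1 of the 30 with an unadjusted p under 0.05, against 2.50% of all genes. It was at 1.79, 1.97 and 2.42 FPKM in Aim2 KO and at 1.10, 1.53 and 1.35 FPKM in wild type, with no overlap (log2 difference 0.39, limma adjusted p = 0.9998). Of all genes tested 6.46% did not overlap. Mxi1 of the same list did not overlap either, and it was lower in Aim2 KO (log2 difference -0.15). The Cxcr4 difference was 0.46 when Aim2 KO replicate 1 was left out, again not called. Leukocyte markers separated the genotypes in the same direction, and their part in this value was not tested.

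With the muscle level, where 11.6% of all genes rose and 2.26% fell, 4 of the 12 other glycolysis genes rose and 0 fell. They were Slc2a4, the insulin-responsive glucose transporter of muscle and fat (slope 1.17, limma adjusted p = 0.00378), Pgam2 (1.14), Ldhd (1.23) and Pfkfb1 (0.90, adjusted p = 0.0499). Among the pyruvate genes 8 of 15 rose. The smallest p there was that of Pdk2 (slope 0.96, adjusted p = 0.00450), a kinase that restrains pyruvate dehydrogenase, and the carrier subunit gene Mpc1 had a larger slope (1.09, adjusted p = 0.0106). In oxygen sensing 1 of 11 rose, a share no larger than that of all genes. It was Epas1 (0.67, adjusted p = 0.0210), which encodes the HIF-2 alpha subunit. Of the other hypoxia targets 8 of 30 rose. The smallest p among them was that of Cav1 (slope 0.87, limma adjusted p = 0.00886). Gys1, the glycogen synthase of muscle (0.85, adjusted p = 0.0131), Plod1 (0.96) and Gbe1 (0.67) were also called. All of these calls were lost without Aim2 KO replicate 1, where 0 genes were called.

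Some of the values could be affected by shared reads. Processed pseudogenes of Gapdh, Pgam1, Ldha and other glycolysis genes are near-identical to their parents, and how the authors' counting split such reads is not known here. Of the 31 genes 12 overlap another annotated gene, and for 5 of them that gene had at least 1 FPKM: Pfkp with Pitrm1 (12.3 FPKM), Tpi1 with Spsb2 (7.86 FPKM), Slc2a1 with Gm12868 (1.47 FPKM), Pfkm with Senp1 (5.83 FPKM) and Ankrd37 with Ufsp2.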

How the data were processed

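Bulk RNA from tongues, in 6 libraries, was sequenced, and the authors deposited 1 table of FPKM values per gene and library, per the labels and the file header. Aligner, counter and build were not given in the sources used here. All 31 genes are in GENCODE M21, 22 with identical coordinates, so coordinates are printed as deposited and read as GRCm38.

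FPKM times gene length gave whole reads, within 0.01, for 100% of values, which set the depths of 21959204 to 25369400 reads. The test was limma 3.58.1 (R 4.3.3) with a trend on log2(FPKM + 1), which understates changes of low genes, over the 12144 genes that averaged 1 FPKM or more, two-sided, Benjamini-Hochberg adjusted over all of them, threshold 0.05. A second fit added the skeletal muscle level (18 markers). Isozyme ratios were compared by exact permutation. All 31 genes could be named, and of each pathway list the 4 with the smallest p in either fit. The fits were tested on simulated data.

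The genes, the pathway and marker lists and the tests were chosen with earlier results of these data known. Alternatives were other pseudocounts, filters, scalings and limma settings, the replicate number as a block, covariates and leaving out each library. The keratinocyte covariate, the muscle level without Tnnc2 and the ratios with a muscle covariate were added after seeing the data. No protein sequences were used.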

Additional observations from a re-analysis of the deposited data

How the results depend on the processing

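No glycolysis or hypoxia gene was called between the genotypes under any alternative run, and the smallest adjusted p of the 29 was 0.415, with array quality weights (limma); it was 0.617 with the muscle covariate and 0.706 without Aim2 KO replicate 1. Over all genes the count of 1 became 14 without a filter, 0 with a filter at 0.1 FPKM, 0 after rescaling to TPM, 10 with the muscle covariate and 68 with array quality weights, and 0 to 14 when a library was left out. For the muscle level, 1683 genes became 1 without a filter and 0 to 1893 when a library was left out, and the 6 genes of the list became 0 and 0 to 8. Deviations from the group mean correlated at 0.351, 0.458 and 0.030 between same-numbered libraries. The values 0.351 and 0.458 were the highest of all pairs, whereas Aim2 KO replicate 3 correlated best with wild type replicate 2 (0.213). The labels do not say whether a shared number marks a batch or a pairing, and this was not tested. With the replicate block 0 genes were called. Median-of-ratios scaling moved the median of all genes to -0.01.

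Log2 differences changed sign in 23 of the 29 genes under some setting, a count that was not made over all genes, and the cause was not tested. With array quality weights these were Hif1a -0.18, Slc2a1 -0.20, Pfkp -0.0596, Pfkfb3 -0.0375, Tpi1 0.00439, Gapdh 0.0544, Pgam1 -0.000692, Eno1 -0.0102, Eno3 0.0260, Vegfa 0.0817, Adm -0.41 and Car12 -0.11. With the muscle covariate they were Hif1a -0.13, Slc2a1 -0.0356, Gpi1 0.0243, Pfkp -0.0553, Pfkl -0.0473, Aldoa 0.00948, Tpi1 0.0131, Gapdh 0.0326, Pgam1 -0.0327, Eno1 -0.0519, Eno3 0.0283 and Adm -0.15. With median-of-ratios scaling they were Hif1a -0.00987, Pfkp -0.00760, Pgk1 -0.0214 and Ldha -0.00210, and with quantile normalization Gpi1 0.000445 and Gapdh 0.00896. When a library was left out the ranges were, for those whose sign changed, Hif1a -0.20 to 0.22, Slc2a1 -0.12 to 0.32, Gpi1 -0.0760 to 0.0365, Pfkp -0.0918 to 0.11, Pfkl -0.0975 to 0.19, Pfkm -0.58 to 0.10, Pfkfb3 -0.0107 to 0.18, Aldoa -0.27 to 0.0554, Tpi1 -0.13 to 0.0476, Gapdh -0.0843 to 0.0623, Pgk1 -0.00773 to 0.0451, Pgam1 -0.0932 to 0.24, Eno1 -0.11 to 0.21, Eno3 -0.52 to 0.16, Pkm -0.0176 to 0.0789, Ldha -0.0137 to 0.0876, Ldhb -0.39 to 0.0257, Slc16a3 -0.18 to 0.32, Vegfa -0.30 to 0.00882, Adm -0.33 to 0.48, Car12 -0.0219 to 0.25, Ndrg1 -0.0303 to 0.15 and Bnip3 -0.35 to 0.0662.

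Muscle slopes changed sign for Pgk1 (-0.10, median-of-ratios scaling), Pkm (0.16) and Ldha (0.17, quantile normalization) and Ldha (0.00717, TPM). When a library was left out the ranges were Hk1 -0.54 to 0.00951, Pfkfb3 -0.39 to 0.70, Aldoc -0.24 to 1.83, Pgk1 -0.000776 to 0.0663, Pkm -0.16 to 0.20, Vegfa -0.28 to 0.65, Car12 -0.53 to 1.28 and P4ha1 -1.47 to 0.11. Log2 differences of ratios with the muscle covariate were 0.080 for Eno3 to Eno1 and 0.037 for Pfkm to the sum of Pfkl and Pfkp, and when a library was left out they ran as Eno3 to Eno1 -0.74 to 0.27, Pfkm to the sum of Pfkl and Pfkp -0.74 to 0.21, Ldhb to Ldha -0.47 to 0.0116 and Slc16a3 to Slc16a1 -0.14 to 0.53. With 3 libraries a group and 1 setting the muscle range, small genotype changes were not detectable.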

Other observations

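Pathways fed by glucose phosphate were read from the same fits. Of 14 glycogen genes 3 had higher and 11 lower estimates in Aim2 KO (median log2 difference -0.14, against 0.02 for all genes), and 0 were called by limma or had an unadjusted p under 0.05. Without Aim2 KO replicate 1 the direction turned, with 10 higher and 4 lower (median 0.15, against 0.06 for all genes). Ppp1r3c, which targets a phosphatase to glycogen, was at 12.0 FPKM against 18.4 FPKM (log2 difference -0.78, SE 0.49, and -0.50 without that library). Pygm, muscle glycogen phosphorylase, was at 156, 354 and 285 FPKM in Aim2 KO and at 272, 358 and 323 FPKM in wild type, a log2 difference of -0.33 that was 0.0096 without it. With the skeletal muscle level 9 of the 14 rose and 1 fell, where 11.6% and 2.26% of all genes did. Ppp1r3a, the muscle phosphatase targeting gene, had a slope of 1.53 (limma adjusted p = 0.00321), Phkg1, a phosphorylase kinase subunit, 1.42, Pygm 1.08 and Gyg, the primer of glycogen synthesis, 1.03. These calls were lost without Aim2 KO replicate 1, where 0 genes were called.

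Of 8 genes of the pentose phosphate pathway, which makes NADPH and ribose from glucose phosphate, 7 had higher estimates in Aim2 KO and 1 lower (median 0.09), and 0 were called by limma or had an unadjusted p under 0.05. The split was 4 to 4 without Aim2 KO replicate 1 (median 0.0058). G6pdx, its first enzyme, was at 92.9 FPKM against 77.2 FPKM with no overlap of the groups (log2 difference 0.26, SE 0.12, limma adjusted p = 0.9998, and 0.17 without that library). The transketolase gene Tkt was at 129 FPKM against 106 FPKM (log2 difference 0.26, SE 0.17, and 0.10 without it). Of all genes tested 6.46% did not overlap. With the muscle level 1 of the 8 rose, H6pd (slope 0.62, limma adjusted p = 0.0439), a share near the 11.6% of all genes, and that call too was lost without Aim2 KO replicate 1.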
